A study of Mus musculus with 2 samples.

Results

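This report concerns the chromatin around 10 genes of immunoglobulin-domain adhesion molecules that sit on the surface of growing axons: Ncam1, Ncam2, Chl1, Nrcam, Nfasc, Alcam, Cntn1, Cntn2, Cntn4 and Cntn5. ATAC-seq, in which the Tn5 transposase cuts and tags accessible chromatin, had been run on GFP-positive cells that were purified by FACS from Hb9::GFP mouse embryos, strain C57/Bl6, at embryonic day 10.5. The labels name the cells spinal motor neurons. The reporter is driven by Hb9 (Mnx1) sequences, and the sort thus selects every cell with reporter fluorescence. There was 1 group of 2 replicates and no control tissue, and the deposited peak list was pooled over both replicates. No value below therefore has a replicate error, and no test between conditions exists.

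Each summit of the peak list is called an entry. An entry was assigned to a gene when its summit lay inside the gene's span, or outside it but within 100 kb when an end of that gene was the nearest end of any protein-coding gene. Of 138387 entries, 335 met this rule at the 10 genes. One of them, inside Chl1, was very deep and is described apart, which left 334 entries in 259 separate intervals. The 10 genes cover 4219 kb and, with the sequence searched beside them, 5472 kb. Of the 334 entries, 17 lay within 1 kb of an end of their own gene, 263 lay elsewhere inside the spans and 54 elsewhere outside. None of the spans overlapped another protein-coding gene, and no assigned entry lay inside another gene. The gene table gives neither exons nor introns, so entries inside genes are not divided further.

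Cell adhesion molecules of the immunoglobulin superfamily carry immunoglobulin domains, in most cases followed by fibronectin type III domains, and bind like or unlike partners on neighbouring membranes. They hold axons together in bundles, guide growth cones and later organise the axon initial segment and the nodes of Ranvier. Ncam1 and Ncam2 encode the neural cell adhesion molecules. Ncam1 is the main carrier of polysialic acid, which loosens adhesion. Chl1, Nrcam and Nfasc belong to the L1 family, whose cytoplasmic tails bind ankyrin and so the spectrin skeleton. Contactins, here Cntn1, Cntn2, Cntn4 and Cntn5, have no cytoplasmic part and are held by a lipid anchor. Alcam, also called BEN or DM-GRASP, is found on several kinds of young projection neurons and binds itself and CD6.

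The strength of an entry is given as the authors' fold, the ratio of the signal at the summit to the peak caller's local background, and as reads, the pileup at the summit as solved from that fold and the −log10 p. The median entry of the 10 genes had 2.98-fold enrichment and 21 reads, against 3.14-fold and 24 reads over all 137694 chromosomal entries that were not very deep. Away from gene ends the medians were 2.98-fold and 20 reads at the 10 genes and 2.98-fold and 21 reads elsewhere. A q-value under 0.05 was reached by 276 of the 334 entries (82.6%), against 82.3% of all chromosomal entries. Of 5-fold or more were 64 (19.2%), against 25.5% of all. Away from gene ends the entries of these genes were thus of ordinary strength. The 17 within 1 kb of an end of their gene had medians of 4.91-fold and 43 reads. Over all gene-end entries the medians were 5.49-fold and 64 reads. Of the 334 entries, 165 rested on 20 reads or fewer. The smallest pileup in the list was 11 reads, and a stretch without an entry may hold accessibility too weak for this limit.

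**Figure D1:**
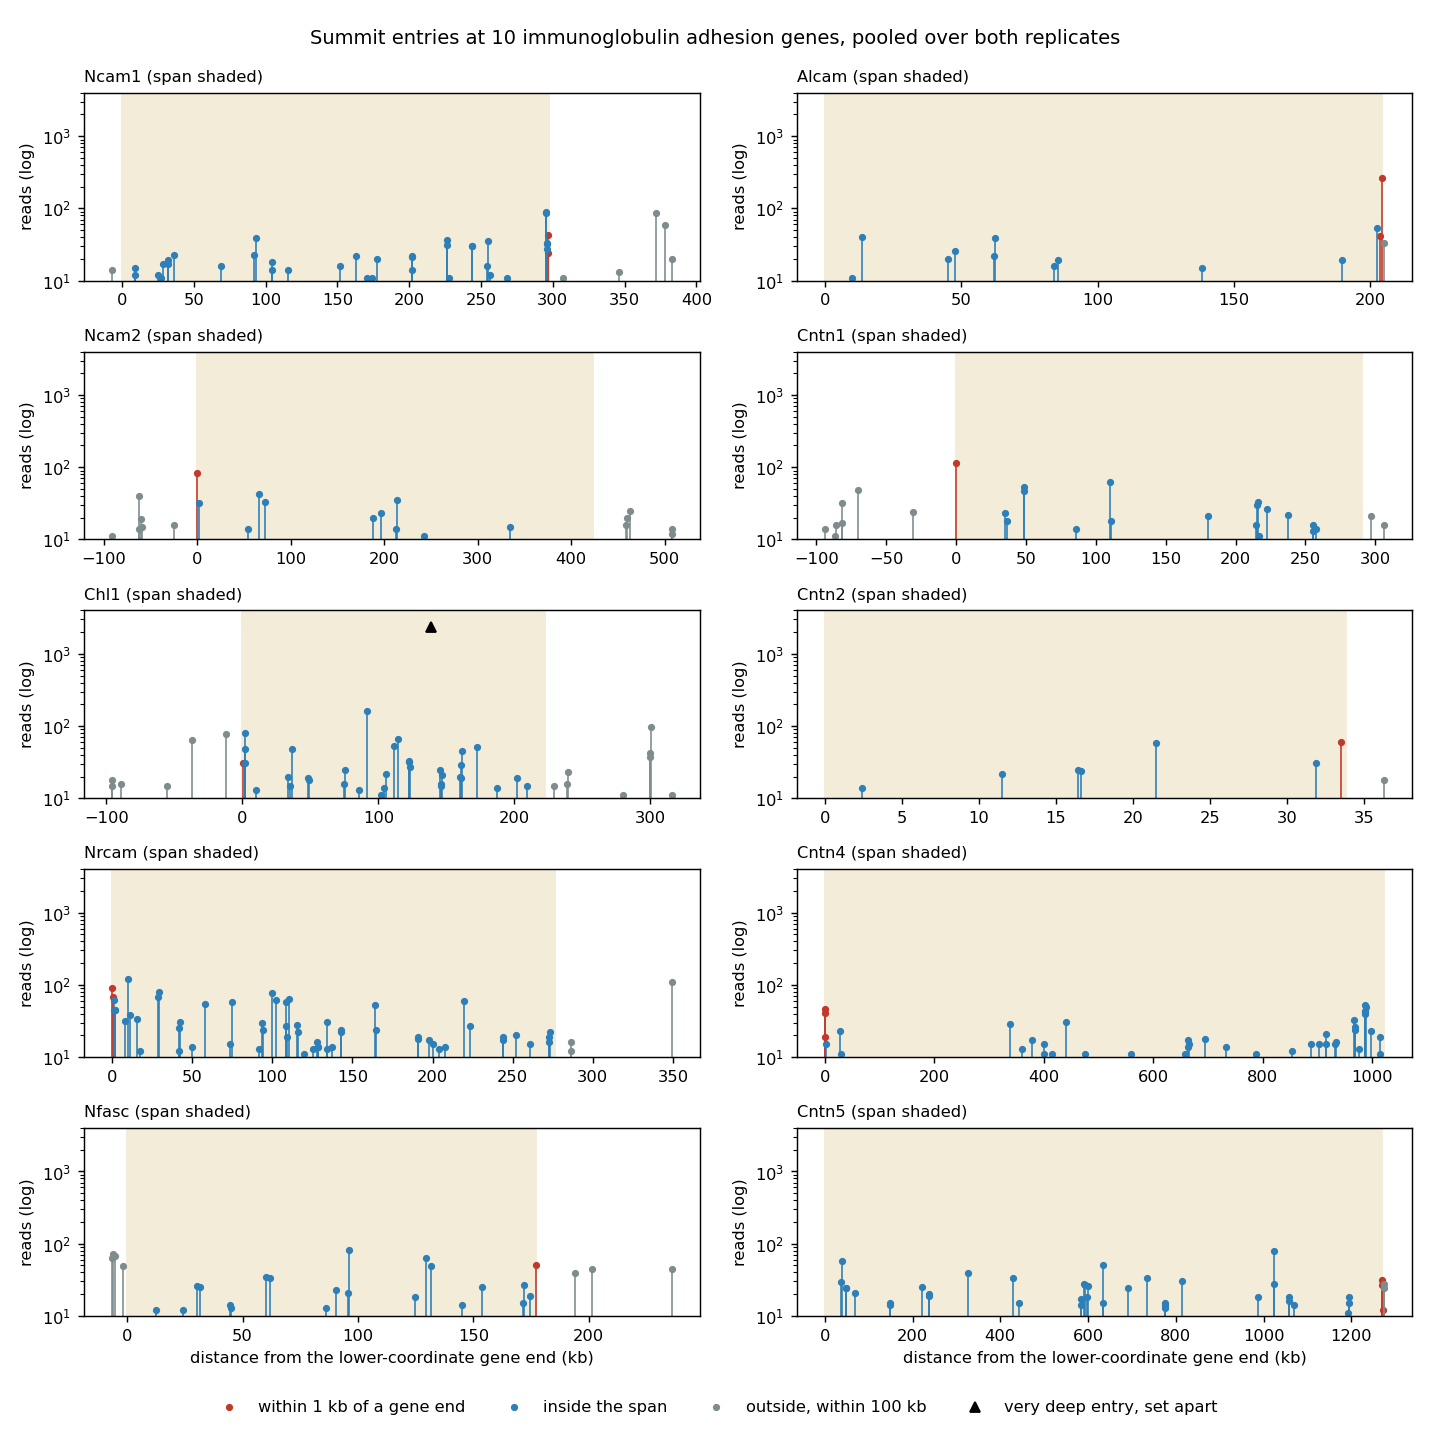
Summit entries along each of the 10 genes. The x axis is the distance from the lower-coordinate end of the gene in kb, with the span shaded. The y axis is the reads at the summit on a log scale. Alcam has 1 entry of 264 reads at its upstream end and 13 weaker ones, Nrcam is filled along its whole span, and Chl1 holds the very deep entry of 2370 reads (triangle).

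The number of entries differed widely between the 10 genes. The counts, from the highest, were 61 entries at Nrcam, 48 at Chl1, 44 at Ncam1, 41 each at Cntn4 and Cntn5, 28 at Nfasc, 27 at Cntn1, 22 at Ncam2, 14 at Alcam and 8 at Cntn2. The median was 34.5, against 3 over all 21887 protein-coding genes. Counts rise with gene length. Genes of 100 to 300 kb had a median of 12 entries, those of 300 kb to 1 Mb 27 and those of 1 Mb or more 50. Counts were therefore set against the length searched.

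Per 100 kb of search region, Cntn2 had 17.8 entries (exact Poisson 95% interval 7.69 to 35.1) and Nrcam 15.9 (12.2 to 20.5). Chl1 had 11.4 (8.38 to 15.1), Nfasc 10.9 (7.24 to 15.7) and Ncam1 10.9 (7.89 to 14.6). The other 5 genes were sparser. Cntn1 had 6.54 (4.31 to 9.51), Alcam 4.31 (2.36 to 7.24), Cntn4 3.64 (2.61 to 4.93), Ncam2 3.53 (2.21 to 5.34) and Cntn5 2.79 (2.0 to 3.78). Neighbours in this order had overlapping intervals. Those of Nrcam, Chl1, Ncam1 and Cntn2 lay wholly above those of Alcam, Cntn4, Ncam2 and Cntn5. These intervals cover counting error only and treat entries as independent, although 55 of the 259 intervals held 2 or more. The same 5 genes were the densest under all 7 other ways of counting, and Nrcam rather than Cntn2 came first in 4 of them. However, 2 of the 7 could not alter the order. No counted entry had a background of 30 reads or more, and none lay inside another gene.

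Set beside genes of similar length, Nrcam stood out most. Its density ranked 68th among the 1872 genes of 100 to 300 kb, where the median was 5.45 entries per 100 kb, and its 61 entries ranked 6th in number. Chl1 ranked 228th of these genes in density, Nfasc 257th and Ncam1 259th, Cntn1 739th and Alcam 1197th. Ncam2 ranked 344th of 498 genes of 300 kb to 1 Mb (median 4.69). Cntn4 ranked 32nd and Cntn5 42nd of 59 genes of 1 Mb or more (median 3.90). Cntn2, whose span of 33.8 kb is the shortest of the 10, ranked 2694th of 19458 genes under 100 kb (median 6.16), and its rank rests on 8 entries. In all, 6 of the 10 genes were above the median density of their length class. Grouped by family, the 3 L1-family genes had 12.9 entries per 100 kb (10.8 to 15.2), the NCAM genes 6.42 (4.96 to 8.16), Alcam 4.31 and the 4 contactins 3.83 (3.17 to 4.59). These values are pooled over length, and Cntn4 and Cntn5, in the longest class, take 1127.6 and 1470.6 of the 3056.2 kb searched at the contactins. The order of the families was not compared at matched length. Within the contactins, Cntn2 was the densest and Cntn5 the sparsest of all 10 genes.

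**Figure D2:**
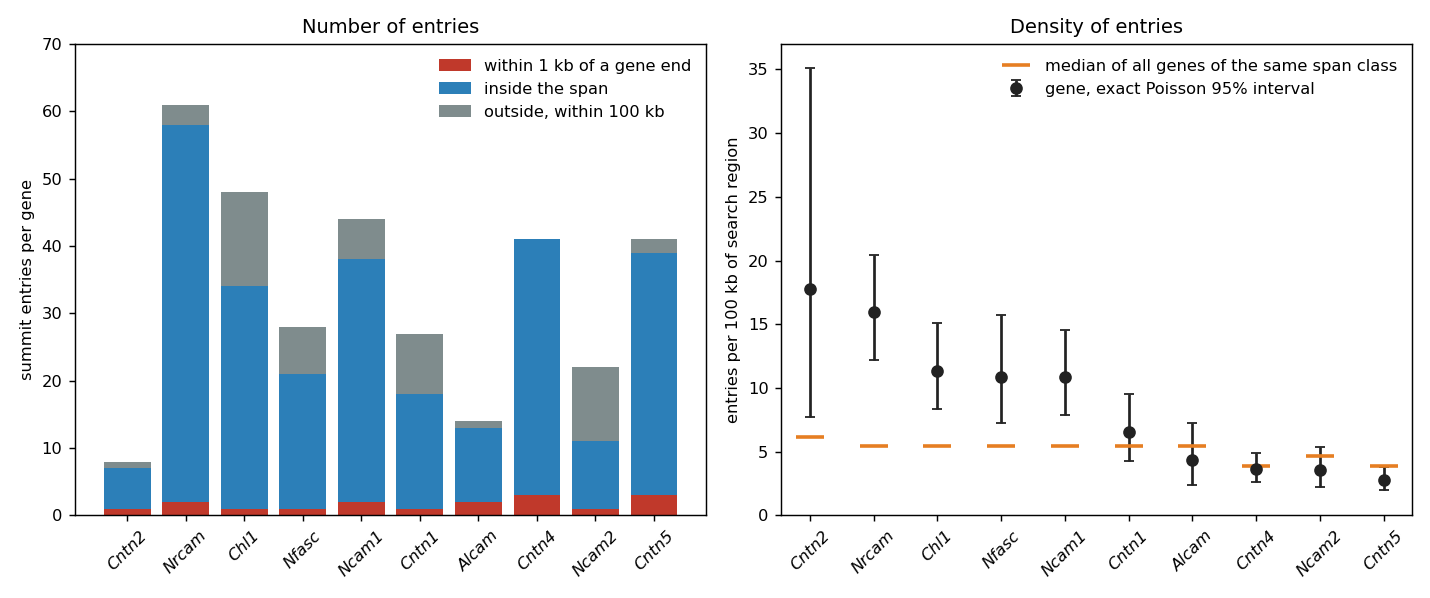
Left, number of entries per gene by position. Right, entries per 100 kb of search region with exact Poisson 95% intervals (counting error only) and, as orange bars, the median of all protein-coding genes of the same span class. Cntn2, Nrcam, Chl1, Nfasc and Ncam1 lie above their class medians by more than the interval, and Cntn5 lies below its own.

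**Figure D3:**
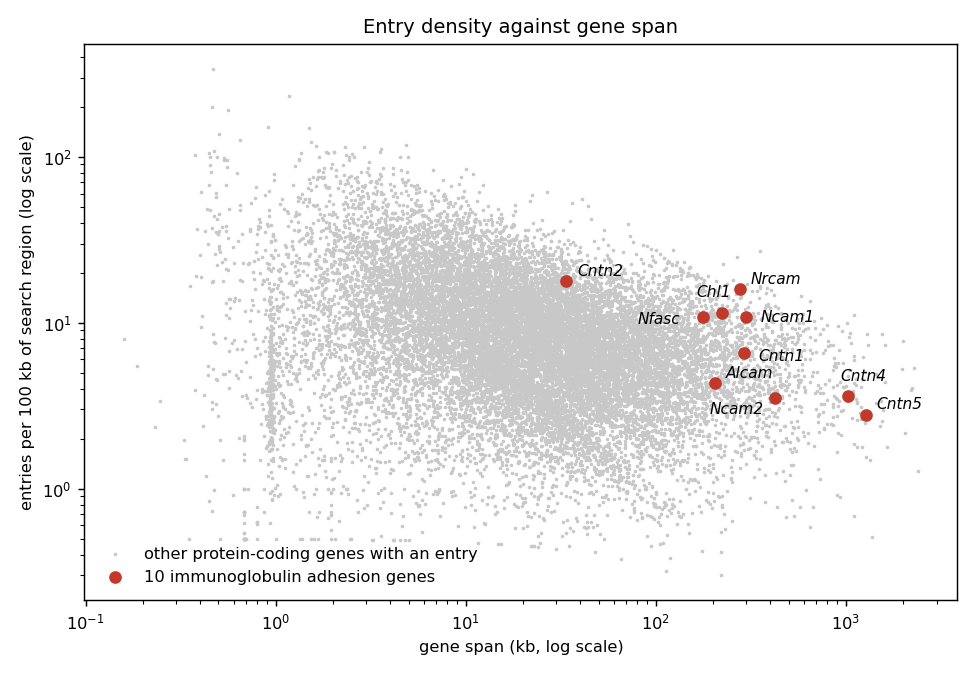
Entries per 100 kb of search region against gene span, both on log scales. Grey points are all other protein-coding genes with an entry and red points the 10 adhesion genes. Density falls with span. Nrcam, with 15.9 entries per 100 kb at 276.4 kb, lies high in the cloud, 68th of 1872 genes of 100 to 300 kb.

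An entry lay within 1 kb of a gene end at 10 of the 10 genes, against 65.5% of all protein-coding genes. Among genes of 100 kb or more, the size of 9 of the 10, the share was 82.0%. For the 9 genes with a strand in the RefSeq promoter table, which are all but Ncam1, the accessible end was in every case the upstream one. Over all genes with a strand, 62.3% had an entry at the upstream end of the span and 11.9% at the downstream end, where none of the 9 had one. At the downstream ends, the closest entries lay from 1990 bp (Nfasc) to 38121 bp (Cntn5) away. Ncam1 had 2 entries within 1 kb of its higher-coordinate end and none within 6890 bp of the other.

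These gene-end entries were weak for the most part. The leading one of each gene had a median of 5.91-fold and 55.5 reads over the 10 genes, against 8.16-fold and 97 reads over the 14341 genes that have one. In both measures 8 of the 10 were below those medians. Alcam and Cntn1 were the exceptions. At Alcam the entry at chr16:52452342-52453649 had 11.5-fold enrichment and 264 reads (95% Poisson interval 233 to 298). Its reads were above those of 99% of genes with such an entry, and its fold above that of 85.9%. At Cntn1 it had 10.2-fold and 114 reads (94.0 to 137). Nrcam followed with 91 reads (73.3 to 112), Ncam2 with 84 (67.0 to 104) and Cntn2 with 61 (46.7 to 78.4). Nfasc had 50, Cntn4 47, Ncam1 43 and Cntn5 and Chl1 31 each. The interval of Alcam overlapped no other, and below Alcam each interval overlapped the next.

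**Figure D4:**
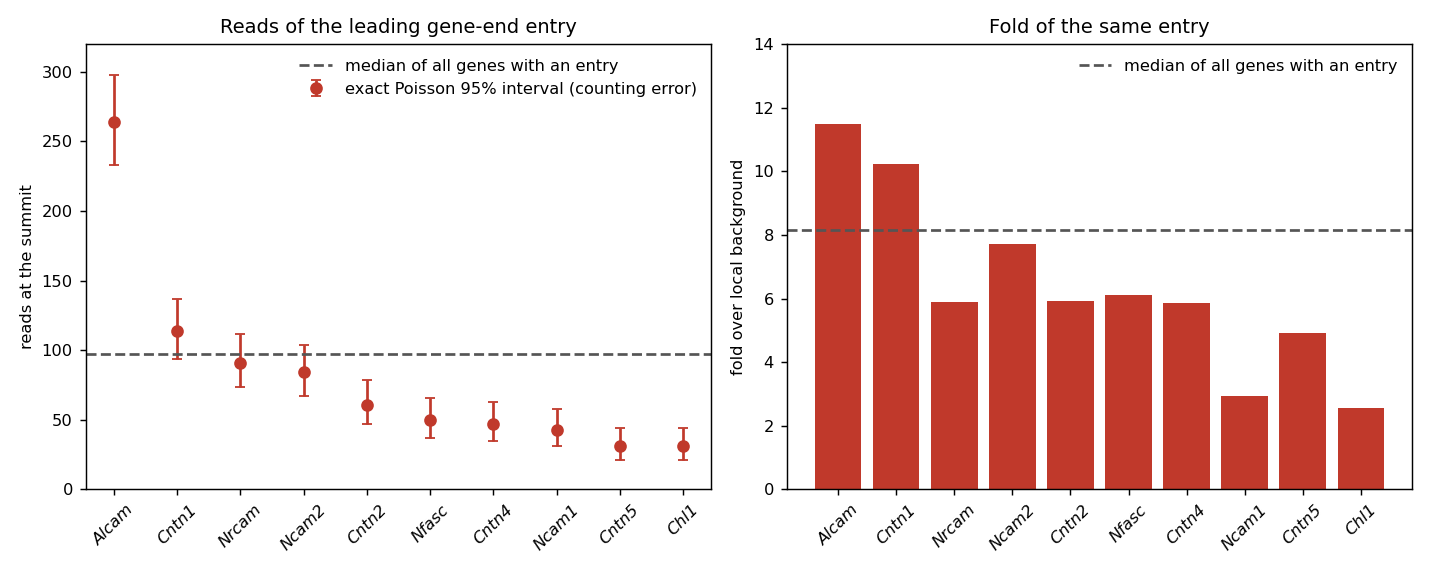
The leading entry within 1 kb of a gene end for each of the 10 genes: reads at the summit with exact Poisson 95% intervals (left) and fold over local background (right). Dashed lines mark the medians of all genes with such an entry, 97 reads and 8.16-fold. Only Alcam and Cntn1 lie above both lines.

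The start sites themselves can be compared in sequence. RefSeq promoters (GRCm38.p6, the assembly of mm10) list 14 starts for 9 of the genes, and 11 of the 14 had an entry within 1 kb, against 65.7% of all annotated starts of protein-coding genes. By gene, 8 of the 9 had one, against 66.5% of genes. The summits lay 2 to 199 bp from those starts. Among them, the 2 starts of Cntn4 shared 1 leading entry, as did the 2 of Cntn5, so the 11 are not separate entries. Shown here are the 250 bases before 4 starts. The strongest start of the 10 genes is set beside the 3 starts of a single gene, Cntn1. Of these 3, the middle one had no entry within 1 kb. The bases are printed from upstream to the start on the gene's own strand, with capitals at matches to 8 short motifs in either orientation. These were the homeodomain core TAATTA, the E-boxes CAGCTG and (for another class of factors) CACGTG, the Onecut core ATTGAT, the Ebf palindrome, the GC box GGGCGG, the NF-Y core CCAAT and the TATA box TATAAA.
Alcam, chr16:52453082-52453331, minus strand: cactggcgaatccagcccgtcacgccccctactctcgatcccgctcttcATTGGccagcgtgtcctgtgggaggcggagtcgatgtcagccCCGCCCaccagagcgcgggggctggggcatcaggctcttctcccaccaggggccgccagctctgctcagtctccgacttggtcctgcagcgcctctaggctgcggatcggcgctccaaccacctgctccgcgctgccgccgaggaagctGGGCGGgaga
Cntn1 first start, chr15:92050915-92051164, plus strand: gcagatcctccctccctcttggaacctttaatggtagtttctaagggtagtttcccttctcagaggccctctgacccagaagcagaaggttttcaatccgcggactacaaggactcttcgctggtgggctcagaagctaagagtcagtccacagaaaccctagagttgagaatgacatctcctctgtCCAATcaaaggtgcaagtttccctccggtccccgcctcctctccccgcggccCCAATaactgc
Cntn1 middle start, chr15:92127878-92128127, plus strand: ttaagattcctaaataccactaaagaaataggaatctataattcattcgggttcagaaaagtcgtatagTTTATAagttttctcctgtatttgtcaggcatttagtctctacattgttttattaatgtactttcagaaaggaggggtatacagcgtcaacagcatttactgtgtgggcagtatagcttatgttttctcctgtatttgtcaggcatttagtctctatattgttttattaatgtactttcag
Cntn1 start furthest inside the gene, chr15:92161107-92161356, plus strand: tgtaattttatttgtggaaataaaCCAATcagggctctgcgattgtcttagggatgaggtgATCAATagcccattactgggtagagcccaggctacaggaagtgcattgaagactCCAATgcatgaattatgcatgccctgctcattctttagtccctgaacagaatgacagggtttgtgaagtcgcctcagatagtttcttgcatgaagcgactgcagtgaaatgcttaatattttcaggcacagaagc

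The Alcam stretch, with 264 reads 65 bp from its start, is 69.2% G and C and holds 22 CpG. It has 2 matches to GGGCGG, the GC box bound by Sp factors, and 1 to CCAAT, the core of the site of NF-Y. GGGCGG was present in 42.6% of all 21263 annotated starts and CCAAT in 35.4%. Cntn1 has 3 listed starts of which the first and the third were accessible. The first had 114 reads with its summit 9 bp away, 7 CpG and 2 CCAAT matches. The third had an entry of 8.36-fold and 62 reads (47.5 to 79.5) whose summit lay 110.1 kb inside the gene and 147 bp from this start, in a stretch with 3 CpG. It holds 2 CCAAT matches and 1 to ATTGAT, the core of Onecut sites, which 5.97% of starts hold. The second start also had 3 CpG and a match to TATAAA, present in 11.6% of starts. The closest entry to it, of 14 reads, lay 9133 bp off. For comparison, starts with an entry had a median of 16 CpG over the same 250 bases, and starts without one 2. The accessible inner start of Cntn1 and the middle one, where no entry lay, thus had the same CpG count.

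The 250 bases before the start of Chl1 have 8 CpG and hold the only match among the 14 starts to the Ebf palindrome, which 0.832% of all starts hold. Shown are the 30 bases around it.
Chl1, chr6:103510773-103510802, plus strand: agctgcctcttgTCCCAAGGGAgtgtgtgt
The entry at this start had the lowest fold of the 10 leading gene-end entries, 2.57-fold, and 31 reads (21.1 to 44.0). A stronger entry of 6.65-fold and 79 reads lay 1522 bp past this start. The only TAATTA was found before the second listed start of Cntn4, 110 bases upstream of it, in a motif held by 4.31% of starts. Shown here are the 30 bases that hold it, because they also contain the summit of the entry at that start, at position 106118839.
Cntn4, chr6:106118820-106118849, plus strand: tgattcatacgcTAATTAcgtcgatccttt
A motif match describes the sequence and is no evidence of binding. CAGCTG was found at 1 start (Cntn4), against 12.1% of all starts, and CACGTG at none, against 6.63%.

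Of the 2 NCAM genes, Ncam1 was the denser, with 44 entries against 22 at Ncam2, in a shorter search region. Beside its higher-coordinate end the accessible interval was broad rather than high. A single interval of 2619 bp, chr9:49796558-49799176, was the widest of all 10 genes and held 7 entries, led by 5.98-fold and 89 reads 2271 bp inside that end. The 2 entries of this interval within 1 kb of the end had 24 and 43 reads. The strongest entry of the gene by fold and −log10 q lay outside it, 74.4 kb beyond the same end at chr9:49873564-49874101, with 12.0-fold and 86 reads (68.8 to 106). Another of 8.12-fold and 58 reads followed at 80.5 kb. The nearest protein-coding gene on that side, Plet1, is 695.1 kb away. Ncam2, the olfactory relative of Ncam1, had its strongest entry at its start (7.73-fold, 84 reads, 44 bp away), in a stretch with 32 CpG. Its 22 entries were split evenly, 11 inside the span and 11 outside, and a stretch of 116.1 kb inside the gene held none. With summits inside the span alone, its count was 11.

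Nrcam and Chl1, of the L1 family, held the entries with the 2 highest folds of the 10 genes, both outside gene ends and leaving aside the very deep one. The highest of Nfasc, 8.81-fold, was below those of Ncam1, Alcam, Cntn1 and Cntn5. Nrcam, which clusters sodium channels at nodes and acts in growth cones, had 58 of its 61 entries inside the span, or 21.0 per 100 kb of span against 2.82 per 100 kb of the sequence outside it. Its first 20 kb were the densest such window of any of the 10 genes, with 11 entries between 44328953 and 44346304 on chromosome 12. Of these, 6 shared the interval over the start (chr12:44328504-44330733, up to 5.88-fold and 91 reads), and the highest, of 120 reads and 8.15-fold, lay 9553 bp from the start. Further inside, at chr12:44492634-44493552, an entry of 8.48-fold and 53 reads (39.7 to 69.3) had the highest fold within the span. No stretch over 26.2 kb inside Nrcam lacked an entry, against a median longest gap of 57.4 kb in genes of 100 to 300 kb. In that class the longest gap was 25.9 kb at Chl1, 28.8 at Nfasc, 36.4 at Ncam1, 52.8 at Alcam and 69.8 at Cntn1. The highest fold of all 334 entries belonged to Nrcam too, but lay 72.9 kb beyond its downstream end, between genes. It had 17.1-fold enrichment and 108 reads (88.6 to 130) over the lowest background of the list, at chr12:44677871-44678330, and ranked 569th of all entries in fold.

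Chl1, the close homologue of L1, had 34 entries inside and 14 outside. Leaving aside the very deep entry, its leading one, chr6:103601768-103602548, lay 91.3 kb inside the gene, with 12.7-fold and 160 reads (136 to 187). Only the entry at the start of Alcam was deeper among those counted at the 10 genes. On the flanks of Chl1, entries of 9.40-fold (98 reads, 77.6 kb beyond the downstream end), 8.41-fold (64 reads) and 8.35-fold (77 reads) were also stronger than the one at the start of Chl1. The last of these were 37.3 and 12.2 kb before the start. The very deep entry set apart, chr6:103649049-103649292, had 2370 reads at 47.7-fold in only 244 bp and ranked 5th of all 138387 entries by −log10 q. It was 1 of 155 entries on the chromosomes with 1000 reads or more, or with a background of 100 reads or more. Whether it comes from sequence present in many copies was not tested.

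Nfasc, which anchors the axon initial segment and the nodes, had no entry at either of its 2 listed starts, where the closest lay 2311 and 8100 bp away with 14 and 13 reads. The accessible site was instead at the upstream end of its annotated span, 35 bp from it, with 6.12-fold and 50 reads. Its highest entry lay inside the gene at chr1:132660183-132660888, with 8.81-fold and 81 reads (64.3 to 101), and its median of 3.61-fold (2.36 to 4.63) was the highest of the 10 genes, though with an interval that overlapped all others. Cntn2 lies 21.4 kb beyond its downstream end. In the gap between the genes, 4 entries of 49 to 73 reads lay on the Nfasc side and 1 of 18 reads on the Cntn2 side.

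Alcam showed the opposite arrangement to Nrcam, with 1 strong start and few other deep entries. Its second deepest entry had 53 reads and its local background at the start was 22.0 reads. Of its 14 entries, 12 were inside the span and a stretch of 52.8 kb had none. At Cntn1, which partners Caspr beside the node, 18 of 27 entries were inside the span. After the first start and the third, the strongest were 7.67-fold (54 reads) at 48.8 kb inside and 7.70-fold (48 reads) at 70.5 kb before the gene. Cntn2, also called TAG-1 and carried by commissural and motor axons as they grow, had its leading entry 2 bp from its start, with 5.94-fold and 61 reads. It was nearly matched by one of 5.49-fold and 58 reads 12.0 kb into the gene.

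The longest contactin genes were filled unevenly. Cntn4, a contactin of olfactory axons, spans 1022.5 kb and had its strongest entry by −log10 q at the upstream end of the span (5.86-fold, 47 reads, 127 bp away). The 2 listed starts, 441 kb inside, share 1 entry of 5.03-fold and 31 reads. A stretch of 308.8 kb without any entry, chr6:105706526-106015364, separated the upstream end from those starts and was 30.2% of the span, against a median of 13.4% for the longest gap in genes of 1 Mb or more. Near the downstream end, by contrast, 8 entries lay within 20 kb (106644956 to 106664805), up to 4.81-fold and 52 reads. Of its 41 entries, 3 reached 5-fold. Cntn5, at 1270.6 kb the longest of the genes, had 1 weak leading entry shared by its 2 starts (4.91-fold, 31 reads). Its strongest entry lay 247.2 kb into the gene, with 9.55-fold and 80 reads (63.4 to 99.6) at chr9:10656961-10657699. Its longest gap was 173.1 kb.

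Along the direction of transcription, the entries of the 9 genes with a strand lay much as those of long genes. Of 237 entries inside these spans, 118 (49.8%) lay in the first 50% of the span and 63 (26.6%) in the first 25%, against 49.9% and 27.8% over 744 genes of 200 kb or more. Nfasc (177.2 kb) and Cntn2 (33.8 kb), among the 9, are shorter than that limit. The first 10% of the span held 15.2% of the entries of the 9 genes, above an even share, and 15.2% over the 744 genes. The genes differed among themselves, from 67.2% in the first 50% at Nrcam (39 of 58) to 32.5% at Cntn4 (13 of 40). Entries of 1 gene are not independent of each other, and the 2 shares were not tested against each other. At the limit of the search, the outermost entries counted lay 95.7 and 95.9 kb from Chl1 (2.98-fold and 2.51-fold). The first ones left out were at 100.7 kb from Chl1 (3.93-fold) and 102.2 kb from Cntn5 (7.85-fold, 49 reads). In all, 147 entries had one of the 10 genes as nearest but lay further than 100 kb away.

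Other immunoglobulin adhesion genes and the partners of the 10 genes were described in the same way. Of 21 related adhesion genes, 19 had a gene-end entry, against 65.5% of all genes and 82.0% of genes of 100 kb or more. They had a median of 22 entries and of 5.24 per 100 kb, against 8.70 over the 10 genes and 6.0 over all protein-coding genes. Density falls with span, from a median of 6.16 in genes under 100 kb to 3.90 in those of 1 Mb or more. These sets were not matched for length. Most entries were at Lsamp (92), Negr1 (88) and Ntm (63), members of the IgLON family with long genes. Dscaml1 and Nectin3 had no gene-end entry. L1cam, the founder of the L1 family, is only 27.1 kb long and had 3 entries and a gene-end entry of 4.24-fold and 26 reads. Among 18 partners and modifiers, 16 had a gene-end entry, to be read against the same 65.5% and 82.0%. They had a median of 20.5 entries and of 7.99 per 100 kb, likewise not matched for length. Cntnap2, a Caspr relative, had 97, the ankyrin gene Ank2 92 and Ptprg, a receptor phosphatase that binds contactins, 64. Ank2 and App had no gene-end entry. Of the enzymes that add polysialic acid to Ncam1, the leading gene-end entry was 10.2-fold (165 reads) for St8sia4 and 5.88-fold (74 reads) for St8sia2.

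The labelled cell type was compared with marker genes at their gene ends. Of 7 motor neuron markers 6 had an entry (all but Isl2), as did 5 of 5 markers of neurons in general, 1 of 5 of blood and microglia, 2 of 4 of endothelium, 2 of 3 of muscle, 2 of 4 of mature glia and 0 of 2 of epidermis, against 65.5% of all genes. Among the 6 motor neuron markers with such an entry, the leading one ran from 34 reads at Chat to 406 at Mnx1. The median over all genes that have one was 97, and 4 of the 6 were below it. At Mnx1 the fold was 7.42, against a median of 8.16 over those genes. Whether sequence of the Hb9 (Mnx1) reporter added reads there was not tested. The leading entries ran from 72 reads (Stmn2) to 197 (Elavl4) at the neuron markers. At the markers of blood, endothelium, muscle and mature glia with an entry they ran from 14 (Myog) to 128 (Spi1). Which cells contributed the entries at the 10 adhesion genes was not tested.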

How the data were processed

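ATAC-seq libraries of 2 replicates (paired 75-nt reads, 8 to 9 amplification cycles, per the labels' protocols) were pooled by the authors into 1 filtered peak list, as its name states. Per the submitters' processing notes, the build was mm10 and the tools included MACS2 2.2.7.1, BWA 0.7.1.7 and, like these with no stated role, SAMtools 1.7.2, Trim Galore and cutadapt 0.6.2. For settings, filter and any Tn5 shift the sources used here give nothing. An entry as deposited has a summit, a score (the −log10 p times 10, rounded down, not used further), a fold (ratio over local background) and the −log10 of the p-value and of the q-value, all as deposited by the authors.

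Reads were recovered by solving the Poisson tail and (reads + 1)/(background + 1) for each entry. For 99.96% of entries the solved reads differed from a whole number by at most 0.01, and all simulated pileups were recovered (100.0% of 5000). Library depths are unknown, and duplicates may remain, so exact Poisson and order-statistic intervals (95%) cover counting error only. Entries of 1000 reads or more, or a background of 100 or more, were set apart. Genes and promoters came from RefSeq tables of GRCm38.p6 (21887 protein-coding genes). Coordinates are mm10, counted from 1. All 10 members matched a gene and 9 a promoter. The search region is the span plus the flanks the rule assigns. Motifs were counted in the 250 bases before each start. Python 3.11.15 with pandas 2.3.3, numpy 2.4.6 and scipy 1.17.1 was used.

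The members, lists and motifs were chosen with earlier results of these data known. All members were named, with the leading entry of each by −log10 q and at a gene end, and the 10 entries of highest fold. From each list of related genes the 3 with most entries and those without a gene-end entry were named. L1cam and the polysialic acid enzymes were named in addition.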

Additional observations from a re-analysis of the deposited data

How the results depend on the processing

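No paired analysis was possible because both replicates are pooled in 1 list of a single group. For the same reason neither replicate could be left out. The total of 334 entries ranged from 259 to 334 under 6 of the 7 alternatives and was 154 when the 50% of entries with the highest −log10 q were kept, a limit that by construction keeps fewer entries. The count of every gene moved by more than 1.5 times under that limit, and that of Ncam2 also with summits inside the span alone. Leaving out entries with a background of 30 reads or more, or with summits inside another gene, removed none of the 334. The median fold of 2.98 was 3.46 with q-values under 0.05 and 4.58 with the upper 50%, and the median of 21 reads was 24 and 34.5, since both limits remove weak entries. The median density of 8.70 per 100 kb ranged from 3.67 (upper 50%) to 9.02 (inside the span alone). The 10 genes with a gene-end entry stayed 10 with windows of 500 bp and 2 kb, with q-values under 0.05 and, an alternative added after the data were seen, with whole intervals in place of summits. They were 9 with the upper 50%. The 8 genes with an entry at an annotated start stayed 8 in all 4 alternatives run. The share of entries in the first 50% of the span, 49.8%, became 26.6% for the first 25%, a shorter part of the gene. Depth was not varied, so what it limits beyond the smallest pileup of 11 reads is unknown.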

Other observations

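Chl1 and Cntn4 lie in a run of 4 adhesion genes on chromosome 6 with no other protein-coding gene among them, in the order Cntn3, Chl1, Cntn6 and Cntn4. The run is 4.54 Mb long and held 171 entries apart from the very deep one, or 3.77 per 100 kb. Inside the spans there were 15.3 entries per 100 kb at Chl1, 3.91 at Cntn4, 3.49 at Cntn3 and 2.97 at Cntn6. The sequence between Cntn3 and Chl1 (946 kb) held 42 entries, or 4.44 per 100 kb, more than the spans of Cntn3, Cntn6 and Cntn4. Between Chl1 and Cntn6 there were 18 in 759.6 kb and between Cntn6 and Cntn4 12 in 814.2 kb. The strongest entry of the run was at an end of Cntn3, chr6:102563769-102564891, with 15.2-fold and 230 reads. Chl1, the densest of the 4, had the lowest fold among the leading gene-end entries of the run, 2.57-fold, against 9.67-fold at Cntn6 and 5.86-fold at Cntn4. Entries inside Cntn6 reached 11.1-fold and 111 reads at chr6:104615339-104616402.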
